A study of Mus musculus with 8 samples.

Results

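Small RNAs of mouse testes that carried no annotation, mapped to 1 position and were 29 to 31 nt long numbered 659659 distinct sequences, 10.6% of the 6246223 sequences in the deposited list. They were taken by 3 criteria that use no measured level: a blank annotation, a map number of 1 and a length from 29 to 31 nt, the size reported for the longer piRNAs that MIWI binds. They made up 47.0% of all listed sequences of that length. There were 263386 sequences of 29 nt, 243297 of 30 nt and 152976 of 31 nt.

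The labels describe 8 libraries in 8 groups of 1, and which of them the list pools is not stated. These were testes homozygous for a knockout of Tdrd6 and testes heterozygous for it, taken 18 days, 25 days or 6 weeks after birth, and testes homozygous for a knockout of Tdrd1 and testes heterozygous for it, both from embryos 18.5 days after conception. The labels give no strain, no wild-type testes and no number of animals per library, and every library carries at least 1 mutant allele. RNA was selected to 19 to 33 nt before linkers were ligated. No sequence was tied to a library, so genotypes and ages could not be compared, the labelled tissue could not be checked against markers, and the depth was unknown. Each sequence counts once however often it was read, so the values are numbers and shares of distinct sequences and not levels. Intervals are exact 95% intervals for counting error only. Sequences that overlap are not independent, there were no replicates, and no test was run.

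PiRNAs are small RNAs that bind Piwi proteins and protect the germ line. In male germ cells at the pachytene stage of meiosis, long noncoding precursors from a limited number of clusters are cut into piRNAs that MILI and MIWI bind, MIWI holding the longer ones. A 5' end with U (T in the listed letters) is the usual mark of a piRNA cut from its precursor. A partner on the opposite strand that overlaps by 10 nt, and A at position 10, are the marks of ping-pong, in which a Piwi protein guided by one piRNA cuts a complementary transcript and the cut makes the 5' end of another. The 3' end is set by trimming and is less exact. TDRD1 and TDRD6 are Tudor proteins that bind Piwi proteins through methylated arginines.

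The sequences printed first show what a length variant is. For each of the 5 genes with most 29 to 31 nt sequences, they are those of 1 5' end with as many variants as any in the gene, the alphabetically first where several tied. The first base and the bases beyond position 29, which the shortest variant lacks, are in capitals. The 5' ends lay on GRCm38 at chr7:73817192-73817222 (plus strand, Gm21269), chr17:27356897-27356927 (plus, Gm49794), chr8:93422582-93422612 (minus, Gm30132), chr7:73816327-73816357 (minus, Gm10619) and chr15:83354464-83354494 (minus, 1700001L05Rik), the ends being those of the longest variant.
Gm21269, 29 nt: Aaaaagacagtggcttcgtaaggcctcat
Gm21269, 30 nt: AaaaagacagtggcttcgtaaggcctcatT
Gm21269, 31 nt: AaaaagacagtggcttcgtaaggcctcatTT
Gm49794, 29 nt: Aaaaagcatttatttagtgcctactgtgt
Gm49794, 30 nt: AaaaagcatttatttagtgcctactgtgtA
Gm49794, 31 nt: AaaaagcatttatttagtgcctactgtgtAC
Gm30132, 29 nt: Aaaaccaggaaaatgtttaagctgtcctt
Gm30132, 30 nt: AaaaccaggaaaatgtttaagctgtccttG
Gm30132, 31 nt: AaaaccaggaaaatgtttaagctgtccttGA
Gm10619, 29 nt: Aaaaacagaaagaggtgaacccactgcta
Gm10619, 30 nt: AaaaacagaaagaggtgaacccactgctaT
Gm10619, 31 nt: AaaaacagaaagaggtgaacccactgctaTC
1700001L05Rik, 29 nt: Aaagaaaggatagataaaagccagtacct
1700001L05Rik, 30 nt: AaagaaaggatagataaaagccagtacctT
1700001L05Rik, 31 nt: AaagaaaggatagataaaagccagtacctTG

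All 15 start with A only because ties were broken by the alphabet, and 897 5' ends of Gm21269 alone had 3 variants of 29 to 31 nt. In the wider list of unannotated unique sequences, the Gm21269 5' end shown had 8 lengths between 23 and 33 nt, and that of Gm30132 had 9 between 21 and 33 nt.

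The 5' end with the most lengths in each of these genes, picked after the values had been seen, is given here as its longest variant of 29 to 31 nt. Capitals mark the first base and the bases beyond the shortest listed length. In 4 of the 5 genes this 5' end began with T, and in 1700001L05Rik with A.
Gm21269, chr7:73817086-73817116 (plus), 15 lengths from 21 to 35 nt: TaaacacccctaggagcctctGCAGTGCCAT
Gm49794, chr17:27356846-27356876 (plus), 16 lengths from 20 to 35 nt: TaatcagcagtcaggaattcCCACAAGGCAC
Gm30132, chr8:93417439-93417469 (minus), 13 lengths from 20 to 32 nt: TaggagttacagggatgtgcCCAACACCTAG
Gm10619, chr7:73809696-73809726 (minus), 15 lengths from 20 to 34 nt: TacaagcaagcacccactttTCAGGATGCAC
1700001L05Rik, chr15:83355335-83355365 (minus), 15 lengths from 20 to 34 nt: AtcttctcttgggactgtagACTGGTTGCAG

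T was the first base of 72.3% (95% interval 72.2 to 72.4) of the 29 to 31 nt sequences. A came first in 10.7%, C in 8.75% and G in 8.27%. The share with T was higher in longer sequences of the class, with 71.1% at 29 nt, 72.5% at 30 nt and 74.1% at 31 nt. The most frequent opening was TG with 22.7%, followed by TA with 19.1%, TT with 17.1% and TC with 13.4%. Of the lists most like this one, unannotated unique ones with 25 to 27 nt began with T in 68.6% (68.5 to 68.7), and annotated unique ones with 29 to 31 nt in 76.3% (76.2 to 76.45). The order of the unannotated classes turned when each 5' end, defined as the first 20 nt, was counted once, with T first in 67.6% (67.5 to 67.8) of those of 29 to 31 nt and 68.0% (67.9 to 68.1) of those of 25 to 27 nt.

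Past the first base, 3 positions stood out. Position 5 held A in 34.4% of the 29 to 31 nt sequences and G in 18.35%, the highest share of A and the lowest share of G over positions 2 to 25. The peak of A at position 5 was no feature of this class alone, since the other lists had 34.2% (25 to 27 nt) and 35.7% (annotated). Position 10 held A in 31.2% (31.1 to 31.3), against 26.6% at position 9 and 28.7% at position 11. Unannotated sequences of 25 to 27 nt held A there in 26.2% (26.1 to 26.3) and annotated ones of 29 to 31 nt in 35.1% (35.0 to 35.3). At position 2, T had its lowest share over positions 2 to 25, with 23.6%, though C was rarer there with 19.1%. The other lists had still less T at position 2, with 20.5% (25 to 27 nt) and 21.2% (annotated).

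Sequences with another first base than T had A at position 10 more often, in 36.1% (35.8 to 36.3), than those with T first, in 29.4% (29.2 to 29.5). At 25 to 27 nt the shares were 28.2% with another first base and 25.3% with T first, and in annotated sequences they were 43.5% with another first base and 32.5% with T first. The body of the sequences also held less G than at 25 to 27 nt. Averaged over positions 2 to 25, G made up 22.7% of the bases of the 29 to 31 nt sequences, 26.7% of those of 25 to 27 nt and 23.4% of those of annotated sequences.

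**Figure D1:**
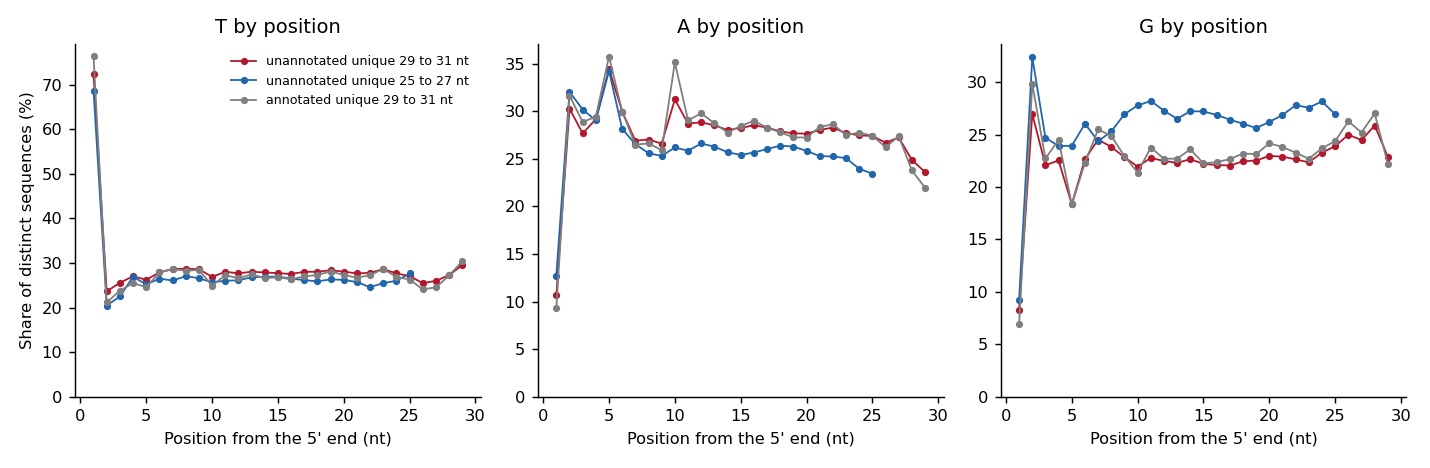
Share of distinct sequences (y, percent) with T, A or G at each position from the 5' end (x, nt), for unannotated unique sequences of 29 to 31 nt (red), those of 25 to 27 nt (blue) and annotated unique sequences of 29 to 31 nt (grey). T at position 1 reaches 72.3% in the red line, A in the red line peaks with 34.4% at position 5 and 31.2% at position 10, and at position 10 the blue line has 26.2%.

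Some of the 5' ends were shared by length variants. There were 436758 5' ends and 1.51 sequences per 5' end. The number was 1.33 at 25 to 27 nt and 1.22 among annotated sequences of 29 to 31 nt. Of the 5' ends, 64.6% had 1 sequence in the class, 20.05% had 2 and 15.2% had 3. Only 0.127% had more than 3, up to 12, which takes sequences that share 20 nt and then differ; 0.231% of 5' ends held such diverging sequences. Per 3' end, defined as the last 20 nt, there were 1.26 sequences. Thus 524358 3' ends stood against 436758 5' ends.

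The lengths combined as follows. All of 29, 30 and 31 nt were present at 15.3% of 5' ends, 29 and 30 nt alone at 11.98%, 30 and 31 nt alone at 5.23%, and 29 and 31 nt without 30 nt at 2.89%. A single length was seen at 30.03% of 5' ends for 29 nt, 23.1% for 30 nt and 11.5% for 31 nt.

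Beyond the class, 58.6% (58.5 to 58.75) of the 5' ends also had unannotated unique sequences of other lengths between 20 and 36 nt. Shorter ones were found at 57.1% of 5' ends and longer ones at 14.05%. A sequence of 27 nt was present at 34.03% of them, one of 28 nt at 32.6%, one of 32 nt at 11.8% and one of 33 nt at 4.61%. The 25 to 27 nt class shared 205613 5' ends with this one, which is 47.1% of the 29 to 31 nt 5' ends and 27.2% of the 25 to 27 nt 5' ends. Of 5' ends with more than 1 length, 23.3% had them in a run without a gap. A mean of 3.49 and a median of 2 lengths were found per 5' end. Annotated sequences shared 0.259% of the 5' ends and unannotated multi-mapping sequences 1.11%.

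The first base differed with the number of lengths. T was first at 66.9% (66.65 to 67.1) of 5' ends with 1 length, 59.05% (58.75 to 59.3) of those with 2 to 3, 65.5% of those with 4 to 6, 80.7% of those with 7 to 9 and 91.9% (91.6 to 92.3) of the 25380 with 10 to 17. T was thus lowest at 2 to 3 lengths and highest at 10 to 17. A at position 10 was lower with each step, with 35.2%, 32.5%, 29.6%, 27.3% and 26.15%. How often a 5' end was read, which also sets how many lengths are seen, was unknown.

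**Figure D2:**
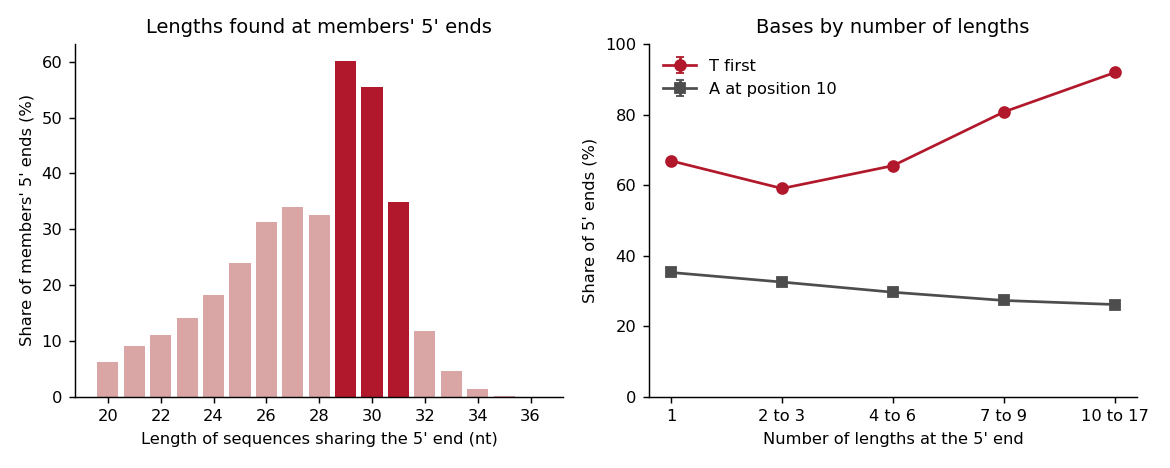
Left, share of the 436758 5' ends of the 29 to 31 nt sequences (y, percent) that also begin an unannotated unique sequence of each length (x, nt), with the class itself in dark red. Right, share of those 5' ends (y, percent) with T first (circles) and with A at position 10 (squares) by the number of lengths found (x), with exact 95% intervals smaller than the symbols; T is at 91.9% and A at 26.15% for 10 to 17 lengths.

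The 5' ends also differed by whether the shorter class shared them. The 231145 5' ends with 29 to 31 nt and no 25 to 27 nt sequences had A at position 10 in 35.0% (34.8 to 35.2), the 205613 with both in 28.6% (28.4 to 28.8), and the 550129 with 25 to 27 nt and none of 29 to 31 nt in 25.5% (25.4 to 25.6). T was first in 64.9%, 70.7% and 67.0% of them. G made up 22.2%, 23.7% and 27.9% of positions 2 to 20.

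At the 3' end, T was the last base of 33.55% of the sequences, C of 26.7%, A of 21.9% and G of 17.8%. T was last in 31.8% at 29 nt, 33.25% at 30 nt and 37.04% at 31 nt. Unannotated sequences of 25 to 27 nt ended in T in 29.8% and in G in 22.8%. Precursors cut in a head-to-tail series have U just after the 3' end that the cut makes, before trimming. The base after the listed 3' ends, which trimming sets, was looked at on annotated transcripts. The base after the 3' end was T in 28.5% (28.2 to 28.8) of sense matches, and the shares at the next 9 positions lay between 27.65% and 28.1%. With only the longest sequence of each 5' end, it was 26.85% (26.5 to 27.2), below that range, which was taken over all sense matches. That count drops any sequence with a longer variant in the class, so it cannot decide on an excess. By length, T followed 27.47% of sense matches at 29 nt, 28.69% at 30 nt and 30.01% (29.41 to 30.61) at 31 nt. The shares at 30 and 31 nt lay above the range of the next 9 positions, which was taken over all lengths, and the share at 29 nt below it. Why the share differed with length was not tested. Of 100556 3' ends on transcripts, 16.95% (16.7 to 17.2) were followed by a 5' end of the class at a distance of 1 nt, against a mean of 16.6% at 2 to 20 nt. The ratio was 1.02, and the share at 6 nt, 17.03%, was no lower. Because the listed 3' ends are set by trimming, cutting in series was not tested by these values.

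Although the authors' list left them unannotated, 18.35% (18.25 to 18.4) of the 29 to 31 nt sequences matched a GENCODE M21 transcript exactly over their whole length, 121035 in all. The share was 18.6% at 25 to 27 nt. Transcripts of a single gene were matched by 117723, of which 83.4% were sense and 16.6% antisense. Long noncoding genes held 49607 sense and 4371 antisense sequences, protein-coding genes 42262 and 3939, and pseudogenes 2836 and 8711. The 50% of sequences with most came from 30 of 5897 genes. Within long noncoding genes 8 of 1420 sufficed, and within protein-coding genes 40 of 3306.

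The 10 genes with most 29 to 31 nt sequences held 32812, or 27.9% (27.6 to 28.1), of those matched to 1 gene, and 96.5% of them were sense. Of these genes, 9 were long noncoding. Gm21269, a long intergenic noncoding RNA (chr7:73816546-73838898, plus strand), had 5609 sense and 533 antisense sequences. Gm49794 (chr17:27354111-27367492, plus) had 4587 and 127, and Gm10505 upstream of it on the same strand (chr17:27325035-27344833) had 2241 and 327. Gm30132 (chr8:93415537-93427628, minus) had 3335 and 2. Strands were thus unequal in all 4, but only Gm30132 was nearly free of antisense sequences.

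Gm10619 (chr7:73781429-73816503, minus) had 2984 sense and 119 antisense sequences. 1700001L05Rik (chr15:83353847-83367282, minus) had 2803 and 0, 4930444F02Rik (chr10:18796806-18831930, minus) 2676 and 5, Gm21388 (chr3:34826669-34879283, plus) 2494 and 0, and 4933440M02Rik (chr7:125284025-125349788, minus) 2386 and 16. Per kb of exon the long noncoding genes had from 361.5 sequences in Gm49794 to 565 in Gm10619. Ago2, whose product binds and acts with miRNAs (chr15:73095844-73184935, minus), was the only coding gene among the 10, with 2560 sense and 8 antisense sequences and 183.0 per kb.

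T was first more often at 29 to 31 nt than at 25 to 27 nt in all 10 of these genes, which sets both classes beside each other in the same genes. It was so in all 10 also with each 5' end counted once. Of the sense sequences of Gm21269, 65.4% of 29 to 31 nt and 52.5% of 25 to 27 nt had T first. In the same order of classes, the shares were 65.55% and 47.3% in Gm10505, 64.55% and 48.55% in Gm49794, 75.6% and 64.1% in Gm30132, and 83.9% and 75.7% in Ago2. A at position 10 lay between 26.4% (1700001L05Rik) and 30.8% (Gm10619) in the sense sequences of the 10 genes. Each sense 5' end had between 1.53 (Ago2) and 1.86 (Gm21269) sequences.

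**Figure D3:**
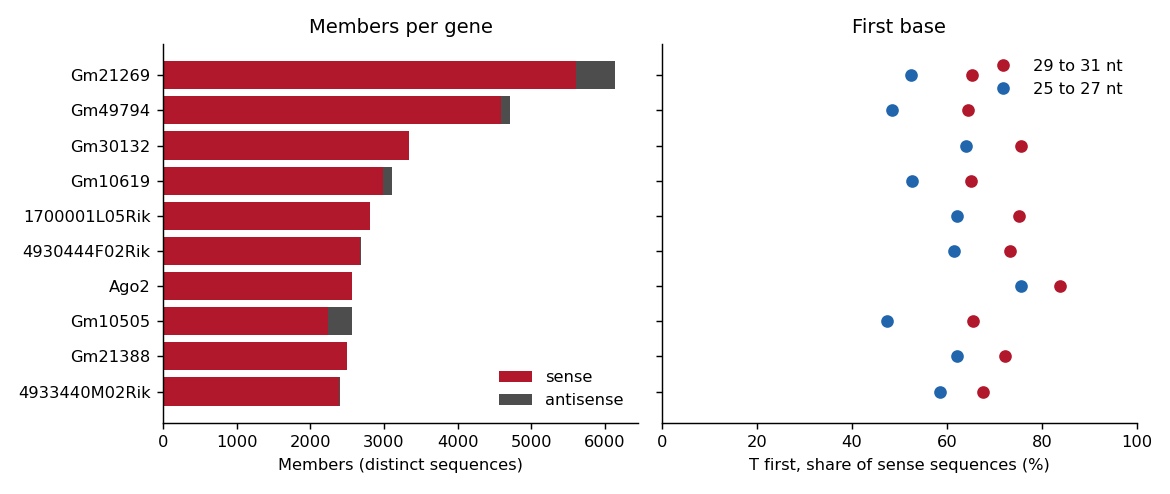
Left, sense (red) and antisense (grey) sequences of 29 to 31 nt in each of the 10 genes with most (x, distinct sequences). Right, share of sense sequences with T first (x, percent) for 29 to 31 nt (red) and 25 to 27 nt (blue); the red point lies to the right of the blue point in all 10 genes.

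The genes also differed in how many sequences they had of each class. In the whole list of unannotated unique sequences there were 0.654 sequences of 29 to 31 nt for each of 25 to 27 nt, and among all sense matches 0.643. Over the 90 genes with at least 100 sense sequences of each class, this ratio had a median of 0.945, a value that leaves out genes below the minimum in either class and is not comparable with those ratios, and ran from 0.1985 (Bend4) to 2.94 (Ptar1). Among the 10 genes it was 1.64 in 4930444F02Rik, 1.21 in 4933440M02Rik, 1.18 in Ago2 and 1.14 in Gm21388, against 0.543 in Gm49794 and 0.509 in Gm10505. Rc3h1, which encodes the RNA-binding protein roquin, was also high, with 641 and 257 sequences, and D10Wsu102e low, with 438 and 1681. Bend4, Ptar1, Rc3h1 and D10Wsu102e were picked after their values had been seen.

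Gm10619 and Gm21269 start 42 nt apart and run away from each other, an arrangement known for pachytene piRNA clusters, and the 29 to 31 nt sequences followed it. To the right of the midpoint between the starts, 5609 lay on the plus strand and 533 on the minus strand. To the left, 2985 lay on the minus strand and 119 on the plus strand. The nearest 5' ends were 25 nt from the midpoint on the plus strand and 24 nt on the minus strand. The search covered annotated exons only, which begin 21.5 nt from the midpoint on either side, so none nearer than that could be found. Gaps between exons in the plot of the pair are likewise gaps of the search.

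**Figure D4:**
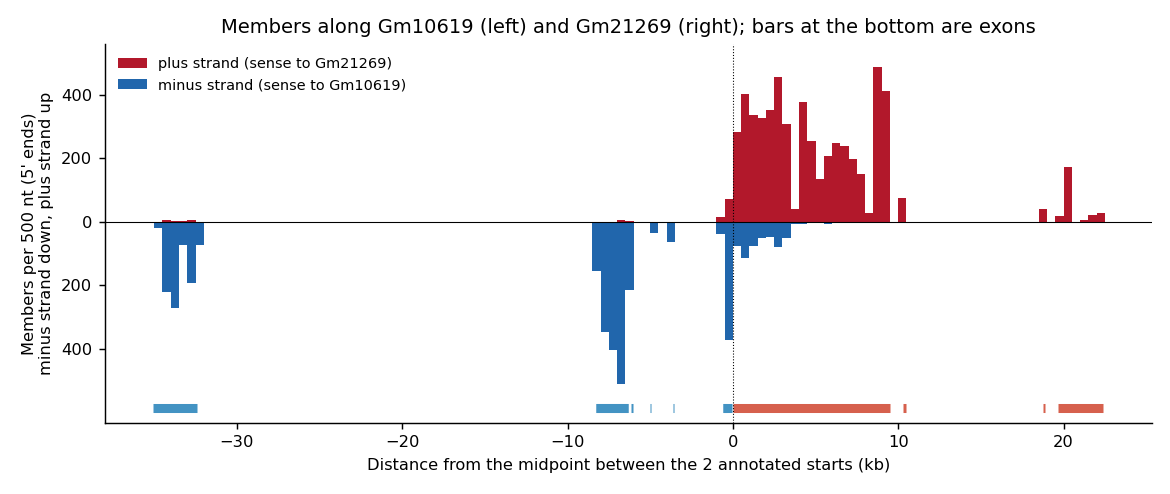
Number of 29 to 31 nt sequences whose 5' end falls in each 500 nt (y; plus strand up in red, minus strand down in blue) along Gm10619 and Gm21269, by distance from the midpoint between their starts (x, kb), with exons as bars at the bottom. Plus-strand sequences dominate to the right (5609 against 533) and minus-strand sequences to the left (2985 against 119).

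In coding genes, the sense sequences lay mainly in 3' untranslated regions. These held 84.6% (84.2 to 84.9) of the 42262, the coding sequence 10.8% and the 5' untranslated region 3.29%. All 2560 sense sequences of Ago2 started in its 3' untranslated region. Next in number among coding genes were Nemp1, which encodes a protein of the inner nuclear membrane, with 1949 sense sequences, 89.2% of them in the 3' untranslated region, and Cbl, which encodes a ubiquitin ligase, with 1782, 99.9% of them there. Sequences to which the authors gave any annotation are outside the class, so this split describes only what they left blank. T was first in 82.8% (82.4 to 83.1) of sense sequences of coding genes and in 70.4% (70.0 to 70.8) of those of long noncoding genes.

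Pseudogenes, which are copies of genes without a working product, were matched mainly on the antisense strand. Antisense sequences formed 75.4% (74.6 to 76.2) of the 11547 in pseudogenes, 8.53% (8.27 to 8.78) in coding genes and 8.10% (7.87 to 8.33) in long noncoding genes. In the 5475 of genes that GENCODE marks as still to be tested by experiment they formed 45.6% (44.3 to 46.96). Of the 40 pseudogenes with at least 50 sequences, 25 had at least 95% antisense and 9 at least 95% sense. Some of these lie close together, such as Gm48448, Gm48451 and Gm48454, all antisense by this measure, within chr10:86569933-86575528. The counts and shares are thus of annotated genes and their sequences and not of independent loci. Of the 131 coding genes of that size, 5 were antisense and 118 sense by the same measure, and of the 49 long noncoding genes 1 and 36. Most annotated genes of that size were therefore covered mainly on 1 strand, whichever it was, since 27 of all 233 lay between.

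Among the loci with most antisense sequences, those named here, picked after their values had been seen, were of several kinds. CT025671.4 (chr17:66193352-66199820), annotated as a long intergenic noncoding RNA, had 1860 antisense and 113 sense sequences. The processed pseudogene Gm18609 (chr6:128185277-128188877) had 1444 and 0, and 3 others, Gm47367, Gm12904 and Gm18009, had 584 and 3, 533 and 0, and 529 and 3. Stox1 (chr10:62659043-62726128), which encodes a DNA-binding protein, had 1247 and 81. Antisense sequences in pseudogenes had T first in 75.9% and A at position 10 in 30.35%, near the sense sequences of the class, while the 2836 sense sequences in pseudogenes had A at position 10 in 41.15% (39.3 to 43.0). In long noncoding genes, A at position 10 was found in 44.7% of antisense and 28.95% of sense sequences. Pooled over coding genes there was no such gap, with 29.9% of antisense and 28.95% of sense sequences. The pools mix genes, since antisense was the strand with more in Stox1 and, among long noncoding genes, in CT025671.4. Within Stox1 the fewer sense sequences had A at position 10 in 65.4% and the antisense ones in 23.3%. Pooled over the genes still to be tested the order was the reverse, with 25.8% (24.1 to 27.5) of antisense and 31.2% (29.5 to 32.9) of sense sequences. Among them, Gm42811 had 1235 antisense and 37 sense sequences, and Gm44168 had 732 and 13. Their few sense sequences had A at position 10 in 78.4% and 76.9%. The pooled shares thus do not compare the strand with fewer sequences with the strand with more. Genes of all other types had 45.2% (27.3 to 64.0) of only 31 antisense and 26.5% (22.6 to 30.6) of 491 sense sequences.

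The remaining 538624 sequences, 81.65% of the class, matched no transcript. They were described without a genome, by joining sequences that share at least 21 nt on either strand into overlap groups. The whole class formed 140158 groups, the largest with 1222 sequences, and 50% of the sequences lay in the 3089 largest. Groups of at least 10 held 71.03% (70.9 to 71.1) of the sequences, and 15.8% (15.7 to 15.9) were alone. Among sequences without a transcript match, 73.9% were in groups of at least 10 and 14.7% were alone, while 20.5% of matched sequences were alone. Only 1.945% of them shared a group with a matched sequence.

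Compared on the first 25 nt, with each such start counted once so that lengths do not matter, 31.4% of the 29 to 31 nt class, 48.2% of the 25 to 27 nt class and 63.3% of the annotated sequences of 29 to 31 nt were alone. Isolated sequences had T first most often. The share was 82.9% (82.6 to 83.1) in those alone, 81.3% in groups of 2 to 9, 73.1% in groups of 10 to 49, 66.9% in groups of 50 to under 200 and 63.4% (63.1 to 63.7) in groups of at least 200. A at position 10 was also most frequent in those alone, with 33.96%, and lay at 30.04% in groups of at least 200.

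Overlap groups, like genes, lay mostly on 1 strand. Of the 9613 groups of at least 10 with a consistent orientation, 69.15% had sequences of 1 strand only and 86.3% at least 95% on 1 strand, and the strand with more sequences held 97.4% of them. At 25 to 27 nt, 84.2% of 13228 groups had 1 strand only.

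The sequences on the strand with fewer were of another kind than those opposite them. In 2959 groups with unequal numbers on both strands, 12216 sequences lay on the strand with fewer and 223962 on the strand with more. A was at position 10 in 70.9% (70.0 to 71.7) on the strand with fewer and in 29.1% (28.9 to 29.3) on the strand with more. T was first in 48.1% (47.2 to 48.96) on the strand with fewer and in 66.1% (65.9 to 66.3) on the strand with more. With each 5' end counted once this gap was smaller, with 47.2% on the strand with fewer and 55.6% on the strand with more, while A at position 10 stayed at 70.05% and 29.3%. Among sequences that did not start with T, A at position 10 was found in 81.0% on the strand with fewer and 32.2% on the strand with more. The groups with 1 strand only, 232238 sequences, resembled the strand with more, with A at position 10 in 29.07% and T first in 71.5%. No other position of the strand with fewer had A above 33.0%, the value at position 5.

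Partners that overlap by 10 nt were in excess in the same groups. Of 9994 5' ends on the strand with fewer, 66.0% (65.0 to 66.9) had such a partner on the opposite strand of their own group, against a mean of 37.45% and a highest value of 39.7% over overlaps of 11 to 20 nt, with 10 bases compared at each overlap. On the strand with more, 5.415% of 122913 5' ends had one, against a mean of 3.07%. The ratio was 1.76 for both, which count nearly the same pairs. Without groups, by 10 bases of sequence among all 5' ends of the class, partners at 10 nt were found for 48.8%, against a mean of 42.3% at other overlaps, a ratio of 1.154. Since 10 bases match by chance more often in longer lists, this ratio was not compared between the lists. By position on transcripts it was 1.97, with 2.67% (2.56 to 2.78) of 84915 5' ends against a mean of 1.35%.

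**Figure D5:**
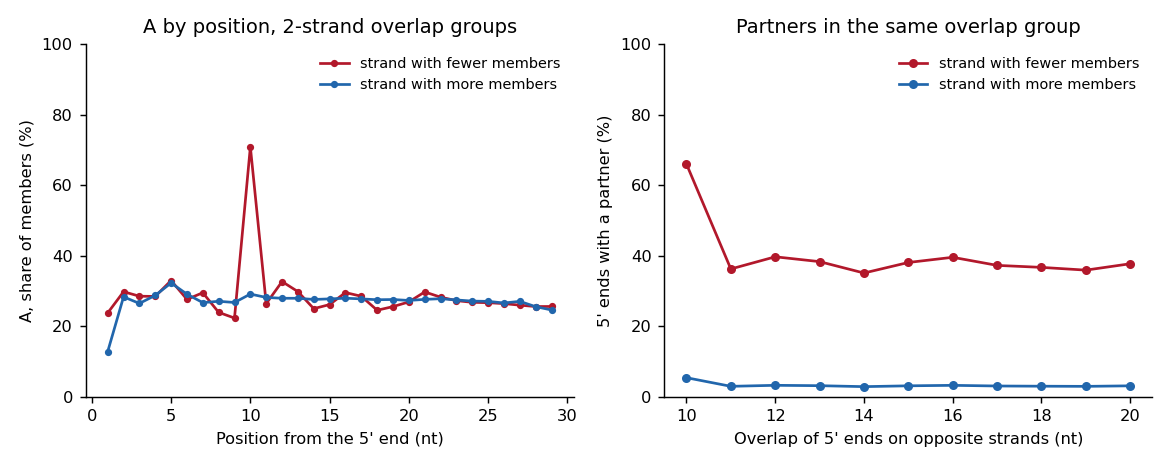
Left, share of 29 to 31 nt sequences with A at each position (y, percent; x, nt from the 5' end) on the strand with fewer (red) and with more (blue) sequences of 2959 overlap groups; A at position 10 is 70.9% and 29.1%. Right, share of 5' ends (y, percent) with an opposite-strand 5' end of the same group at each overlap (x, nt); the red line has 66.0% at 10 nt and between 35.1% and 39.7% elsewhere.

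The same contrast was seen gene by gene. All 8 genes with at least 50 sequences of 29 to 31 nt on each strand had A at position 10 more often and T first less often on the strand with fewer. With each 5' end counted once, this held for A at position 10 in 8 genes and for T first in 7, the exception being Gm10619 with 55.6% on the strand with fewer and 54.9% on the strand with more. In Gm21269 the shares of A at position 10 were 73.0% (69.0 to 76.7) in 533 antisense and 28.1% (26.9 to 29.3) in 5609 sense sequences. In CT025671.4 they were 83.2% (75.0 to 89.6) in 113 sense and 30.75% (28.7 to 32.9) in 1860 antisense sequences, so the strand with fewer could be sense or antisense to the annotated gene. Given for the strand with fewer and then the strand with more, Gm49794 had 82.7% in 127 and 28.04% in 4587, Gm10619 67.2% in 119 and 30.8% in 2984, Gm10505 63.0% in 327 and 29.9% in 2241, Stox1 65.4% in 81 and 23.3% in 1247, and AC140207.2 58.2% in 177 and 34.6% in 1738. Of the sense 5' ends of CT025671.4, 85.3% had an antisense partner at 10 nt, against at most 42.2% at 11 to 20 nt. In Gm21269 these values were 76.6% and 53.4% for antisense 5' ends. Gm26917, with near equal strands, had the smallest contrast, 44.1% (32.1 to 56.7) in 68 and 29.2% (19.05 to 41.1) in 72. Its intervals overlapped, also for T first, so its place among the 8 genes rests on little.

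A pair of sequences each from CT025671.4 and Gm21269 shows the arrangement, chosen after the values had been seen. Each is the pair with most lengths in all among those with A at position 10 on the strand with fewer and T first on the other, so these bases come from the choice. Capitals mark the 10 nt by which the 5' ends overlap, each the reverse complement of the other.
CT025671.4, strand with fewer, chr17:66195389-66195418 (plus): ACACAGTGCAttgagtagctagccttctgt
CT025671.4, strand with more, chr17:66195370-66195398 (minus): TGCACTGTGTtaatcatgttcctctttga
Gm21269, strand with fewer, chr7:73817499-73817527 (minus): TCCTGTTGTAactgtgaagataatgatgg
Gm21269, strand with more, chr7:73817518-73817546 (plus): TACAACAGGAgcaaagaaacttcgacaaa

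The CT025671.4 5' ends had 4 lengths on the strand with fewer and 13 on the strand with more, and those of Gm21269 had 8 and 15.

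The contrast in A at position 10 was also present in the other lists. At 25 to 27 nt, position 10 held A in 61.6% (60.2 to 63.1) of 4414 sequences on the strand with fewer and 26.4% of 136685 on the strand with more, and in annotated sequences of 29 to 31 nt in 57.5% (56.3 to 58.8) of 5801 and 32.5% of 54009. For T first at 25 to 27 nt, the direction depended on the count. The shares were 50.4% (48.9 to 51.9) on the strand with fewer and 49.65% (49.4 to 49.9) on the strand with more, 44.9% (42.96 to 46.8) and 47.8% (47.5 to 48.1) in groups of at least 50, and 49.6% and 40.8% with each 5' end once.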

How the data were processed

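The authors deposited 1 table for the series. Per the file headers its columns are a sequence, a map number and a final annotation; by its values each sequence is listed once. The aligner, the build, the origin of the annotations and any read cutoff are not given in the sources used here. None of its 3 columns was tied to a sample. The sequence classes, genes and alternatives were chosen with earlier results of these data known.

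Full-length exact matches were sought on either strand of 141767 spliced GENCODE M21 transcripts and placed on GRCm38 through the exons, with introns not searched. The build behind the authors' map number may differ. The rule names the 10 genes with most sequences; other names were picked after their values had been seen. Overlap groups joined sequences that share at least 21 nt on either strand, and groups of at least 10 were used. The groups, printed pairs, longest ladders and comparisons of lists, genes and strands with each 5' end counted once were chosen after seeing the data. Intervals are exact (Clopper-Pearson, 95%). Python 3.11.15, numpy 2.4.6, pandas 2.3.3 and scipy 1.17.1 were used. Matching, partners, phasing and groups were tested on simulated data. Base composition alone changes the chance of a 10 nt partner, and this was not tested.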

Additional observations from a re-analysis of the deposited data

How the results depend on the processing

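Distinct sequences rather than reads were counted and the depth was unknown, so no value ranks RNAs by level. With intervals this narrow, 24 of 29 alternatives moved a value beyond its interval or its rounding and 5 did not. No paired analysis was possible because no sequence was tied to any library, and leaving out libraries was not possible for the same reason. Halving the gap that joins regions was not run, since genes were used in place of regions.

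With 28 to 32 nt, T was first in 71.85%, A at position 10 in 30.9%, sequences per 5' end were 1.695 and 18.2% matched a transcript. With 30 nt alone, the shares of T first and of A at position 10 were 72.5% and 31.5%. With each 5' end counted once, T was first in 67.6%, below the 68.0% of the 25 to 27 nt class, A at position 10 in 32.01%, the 10 genes with most held 22.9% and their sense share was 95.5%. The share of 5' ends with other lengths was 55.0% with the first 25 nt as the 5' end and 59.1% when all sequences were searched. The 10 nt partner ratio of 1.154 was 1.16 without the 10 genes with most, 1.07 with partners of 24 to 33 nt and 1.27 by pairs. The ratio by pairs was 1.06 at 25 to 27 nt and 2.11 in annotated sequences. Chance matches differ with the length of the list, so the values by pairs are not comparable between lists. The ratio was 1.97 by position and 1.76 for the strand with fewer within groups. The measures by pairs, by position and within groups were chosen after seeing the data. The ratio at 1 nt after the 3' end was 1.008 with 5' ends of 24 to 33 nt and 1.015 without the 10 genes. T followed 26.85% of 3' ends when only the longest sequence of each 5' end was used, below the shares at the next positions of all sense matches. The next positions of the longest sequences alone were not looked at. Because that count drops sequences that a longer variant extends, it cannot decide on an excess, and the cause was not tested. On the strand with fewer, a 25 nt overlap gave A at position 10 in 75.6% and T first in 46.0%, and groups of at least 50 gave 72.05% and 46.15%, both added after the data had been seen.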
